A study of Caenorhabditis elegans with 12 samples.

Results

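In *Caenorhabditis elegans*, 34 genes that the count tables list by a sequence name alone, such as *R09E10.6*, were almost without reads in unexposed L3 larvae and clearly expressed in unexposed L4 worms. They were chosen by their values in the 6 unexposed libraries: at most 3 counts in each of the 3 L3 libraries, and a mean of at least 50 CPM in the 3 L4 libraries. CPM is the count divided by the library's total over named genes, times 1e6. Of 46546 named genes in the tables, 19512 have a name of this form. Among these, 10280 met the L3 limit, 1289 met the L4 limit and 34 met both. The levels in unexposed worms are therefore a description. The Cd-exposed libraries did not enter the rule, but the test of Cd at L4 sets them against unexposed L4 libraries that did.

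The study asked how cadmium (Cd) changes the transcriptome when larvae are exposed up to L3 or up to L4. Synchronized wild-type N2 worms were grown from L1, and poly-A RNA of whole worm populations was sequenced in 4 groups of 3 biological replicates. The groups were Cd-exposed L4 (20 µM cadmium chloride for 47 h), unexposed L4 (0 µM, 47 h), Cd-exposed L3 (20 µM, 27 h) and unexposed L3 (0 µM, 27 h). N2 populations are almost entirely hermaphrodites, and each library is a pool of many animals.

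The hermaphrodite germ line makes sperm first, during L4, and then switches to oocytes for the rest of life. Spermatogenesis uses a large set of genes that are silent before that stage, among them the major sperm proteins (*msp* genes), which form the crawling cytoskeleton of the sperm and also signal to oocytes. Oocytes in turn make eggshell and maternal proteins, and the intestine of the young adult makes yolk (*vit* genes). Most genes known only by a sequence name have no assigned function, and a link to these programmes can be looked for in when and where a gene is transcribed.

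Library totals lay between 32160427 and 44766672 counts in exposed L4, 36412510 and 44049826 in unexposed L4, 31072077 and 37796672 in exposed L3 and 23899991 and 33925979 in unexposed L3. Sperm markers (90 genes found in the tables) summed to between 5336 and 6672 CPM in the L4 libraries and between 85.1 and 101 CPM at L3. Much of the L3 sum came from a few genes, such as *spe-39* (20.2 to 27.4 CPM) and *spe-48* (19.2 to 23.8 CPM), while each *msp* gene was near 0 there. The L4 libraries also held oocyte and eggshell transcripts (17 genes, 7366 to 12598 CPM) and yolk transcripts (6 genes, 18794 to 47624 CPM), which at L3 did not exceed 214 and 14.9 CPM. The populations labelled L4 thus expressed genes of oogenesis and of yolk synthesis as well as of sperm. Markers of male-specific neurons (7 genes) summed to between 0.866 and 1.77 CPM at L4 and between 2.23 and 2.77 CPM at L3. At L4 *lov-1* was at 0 in 2 unexposed libraries, at 0.136 CPM in unexposed replicate 1 and at 0.067 to 0.198 CPM in exposed libraries.

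The 34 genes together took between 0.295% and 0.352% of all counts in exposed L4 and between 0.270% and 0.339% in unexposed L4. Their summed level was 3519, 2952 and 3023 CPM in the exposed L4 libraries, against 3393, 2696 and 3000 CPM in the unexposed L4 libraries. At L3 all 34 together gave 43 to 62 counts in an exposed library and 33 to 42 counts in an unexposed one. The groups of L4 libraries overlapped in this sum, and every L4 library lay far above every L3 library.

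*R09E10.6* had the highest unexposed L4 level per gene. It measured 241, 190 and 198 CPM in exposed L4 libraries and 244, 173 and 186 CPM in unexposed L4 libraries, with 6, 3 and 4 counts in exposed L3 and 1, 3 and 1 in unexposed L3. *Y57G11A.2* followed with 208, 182 and 185 CPM in exposed L4 and 191, 174 and 172 CPM in unexposed L4. *F17E9.5* had 224, 178 and 179 CPM in exposed L4 and 195, 156 and 163 CPM in unexposed L4. In all 3 genes replicate 1 was the highest library of its group, the exposed and unexposed ranges overlapped, and no L3 library of either treatment went above 6 counts. All 3 lie on chromosome IV of the WBcel235 genome: *R09E10.6* at 10292928 to 10294130 on the minus strand, *Y57G11A.2* at 14517022 to 14519539 on the minus strand and *F17E9.5* at 8345818 to 8346546 on the plus strand.

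The next 7 genes by unexposed L4 level were *C10G11.8*, *D1086.10*, *Y59E9AL.6*, *Y62H9A.5*, *T27E7.1*, *C33F10.1* and *Y38C1AA.7*. *C10G11.8* averaged 168 ± 23.6 CPM in exposed L4 and 157 ± 29.6 CPM in unexposed L4 (SD, n = 3 each). *D1086.10* was the steadiest of the 10 highest across the 6 libraries, with 134, 145 and 150 CPM in exposed L4 and 148, 130 and 156 CPM in unexposed L4. *Y59E9AL.6* stood at 188, 138 and 147 CPM in exposed L4, against 139, 127 and 125 CPM in unexposed L4. The later Ensembl annotation (release 115) names *Y59E9AL.6* *cylc-1*, after the cylicins, which are structural proteins of the sperm head in mammals. *Y62H9A.5* on the X chromosome ran the other way, with 86.8, 87.3 and 98.8 CPM in exposed L4 and 126, 93.2 and 128 CPM in unexposed L4. RefSeq lists it as *stha-3*. The last 3 of the 10 averaged between 108 and 120 CPM in exposed L4 and between 102 and 107 CPM in unexposed L4.

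The order by level was not sharp. Neighbours differed by less than their spread over most of the list: *R09E10.6* (201 ± 37.9 CPM), *Y57G11A.2* (179 ± 10.7 CPM) and *F17E9.5* (171 ± 20.5 CPM) overlapped in unexposed L4, and so did the 24 genes below 100 CPM, step by step, down to *M28.9* at 53.4 ± 9.36 CPM (SD, n = 3). Per kilobase of exon the order was different. *F17E9.5*, which has a short transcript, was the highest at 325 RPKM (CPM per kilobase) in exposed L4 and 287 RPKM in unexposed L4, and *Y113G7C.1*, the longest at 4638 bases of exon, was the lowest at 18.9 RPKM in exposed L4 and 15.3 RPKM in unexposed L4. The median over the 34 genes was 89.2 RPKM in exposed L4 and 89.0 RPKM in unexposed L4.

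**Figure D1:**
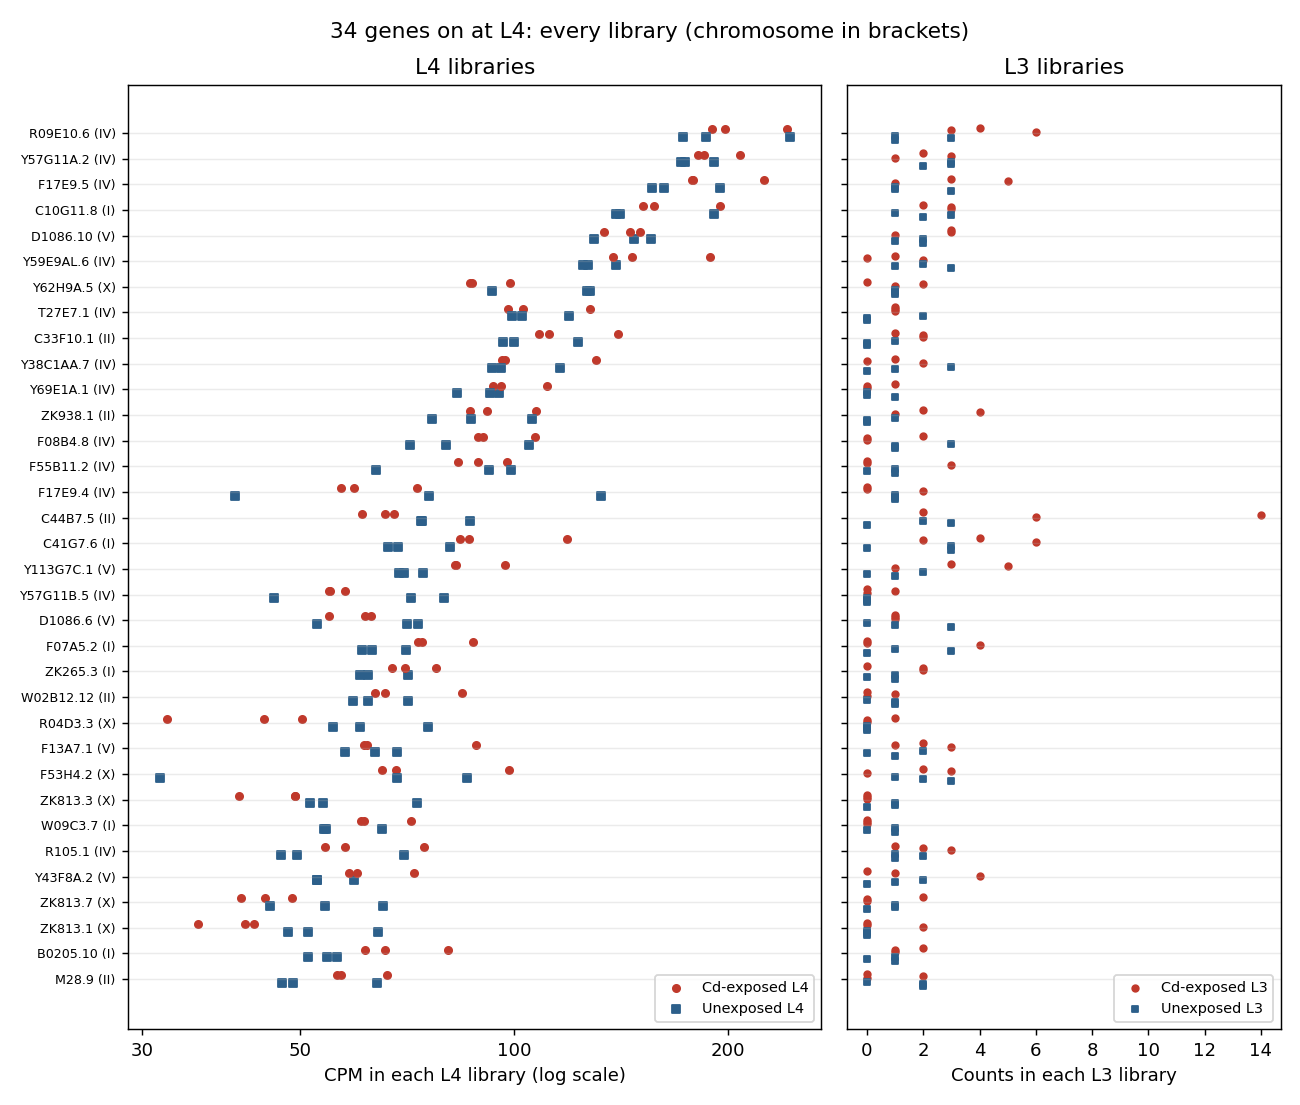
Level of each of the 34 genes in every library. The left panel gives CPM in the L4 libraries on a log axis and the right panel gives raw counts in the L3 libraries, with circles for Cd-exposed and squares for unexposed libraries and the chromosome in brackets. Genes are ordered by their mean in unexposed L4, and at L3 the single value above 6 counts is *C44B7.5* with 14 counts in exposed replicate 2.

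The limits of the choice cut through a continuous range. Just inside the L4 limit lay *M28.9* (53.4 CPM), *B0205.10* (54.1 CPM) and *ZK813.1* (54.6 CPM), and just outside it *K08C9.2* (49.5 CPM), *T06D4.1* (48.9 CPM) and *ZK354.2* (48.6 CPM). The genes just outside the L3 limit had 4 counts in an unexposed L3 library and could be abundant at L4, as were *T13F2.9* (188 CPM), *D1054.10* (166 CPM) and *F14H3.6* (129 CPM). Of those inside, *R09E10.6*, *Y57G11A.2* and *F17E9.5* were the most abundant at L4 among several genes that reached the 3 counts allowed. In all, 3 genes (*Y57G11B.5*, *R04D3.3* and *ZK813.1*) had no count in any unexposed L3 library.

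All 34 genes are annotated as protein coding. The exons of a gene covered between 430 and 4638 bases with a median of 810, and the median of the longest coding sequence was 676.5 bases. These lengths were not compared with those of other genes. In 30 genes no exonic base was shared with another gene of the annotation. *R09E10.6* shared 86 bases (8.16% of its exons) with *ebax-1* on the opposite strand, and the remaining 3 overlapped only short *21ur* RNA genes. The strand setting of the counting is not given in the sources used here, so counts of *R09E10.6* and *ebax-1* in those bases cannot be told apart. Since the tables were made, 4 of the genes have received symbols in Ensembl: *Y59E9AL.6* is *cylc-1*, *C41G7.6* is *cylc-2*, *F07A5.2* is *spsp-1* and *ZK265.3* is *nsph-2*.

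Chromosome IV held 12 of the 34 genes (35.3%), chromosomes I and X 6 each (17.6%), chromosomes II and V 5 each (14.7%), and chromosome III none. Of the 1289 genes of the same name form with at least 50 CPM in unexposed L4, 19.5% were on chromosome IV, 18.9% on III and 6.52% on X, and of all 19512 genes of this form 16.1% were on IV, 11.4% on III and 21.3% on X. Of the 39 genes that have a symbol in the tables and meet the same limits, 48.7% were on chromosome IV, 7.69% on III and 5.13% on X. Several of the 34 lie close together. The X-linked genes *ZK813.3*, *ZK813.7* and *ZK813.1* lie in this order on the plus strand between 3441839 and 3448253, with gaps of 2343 bases (1 other gene between) and 1027 bases. On chromosome V *D1086.6* ends 986 bases before *D1086.10*. On chromosome IV *Y57G11A.2* and *T27E7.1* are 219 bases apart on opposite strands, and *F17E9.5* and *F17E9.4* are 1826 bases apart on the same strand with 2 other genes between. These were the 5 neighbouring pairs within 5 kb.

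In the Cd-exposed worms, which the rule had not used, the same genes were expressed at L4 and nearly silent at L3. All 34 were called higher in exposed L4 than in exposed L3 (edgeR's quasi-likelihood test, adjusted p of at most 0.05 and at least 1 on the log2 scale), beside 25.5% of the 16650 genes tested that were called higher. The highest adjusted p of the 34 was 1.1e-08. Their fitted log2 fold changes lay between 8.29 and 14.24 with a median of 11.09, beside a median of -0.014 over all genes tested. Genes this low at L3 pass the filter on low counts only through L4 libraries and so had to differ, and the fitted values depend on the prior count added to nearly empty libraries. In these whole-animal libraries, fewer cells of a type and less RNA per cell cannot be told apart.

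The counts themselves give the size. *ZK813.3* and *W09C3.7* had no count in any exposed L3 library and averaged 46.5 and 64.7 CPM in exposed L4, at least 1629-fold and at least 2223-fold higher when 3 counts over the exposed L3 group are taken as the floor. *R09E10.6*, with 13 counts over the exposed L3 libraries, was 1656-fold higher in exposed L4 (95% exact interval 968 to 3111, counting error only). *C44B7.5* had the most L3 counts, 6, 14 and 2 in the exposed libraries against 0, 3 and 2 in the unexposed libraries, and was still 309-fold higher in exposed L4 than in exposed L3 (204 to 493). That value rested on exposed L3 replicate 2: the fitted log2 fold change of *C44B7.5* was 8.29 with it and 9.23 without it. *C41G7.6*, with 6, 2 and 4 counts in exposed L3, was 819-fold higher in exposed L4 (469 to 1586). These 3 genes had the most counts of the 34 at exposed L3.

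Not every gene would have been chosen from the exposed libraries. At exposed L3, 26 of the 34 stayed at or under 3 counts in each library and 8 went above in at least 1 library. At exposed L4, 30 averaged 50 CPM or more. The 4 below were the X-linked *R04D3.3* (42.5 CPM), *ZK813.3* (46.5 CPM), *ZK813.7* (44.9 CPM) and *ZK813.1* (40.4 CPM). Both limits were met in the exposed libraries by 22 of the 34 (64.7%), which made up 56.4% of the 39 genes of this name form that met them there.

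Cd exposure had no called effect on any of the 34 at L4. The comparison of exposed with unexposed L4 called 0 of the 34, beside 0.0432% of the 16201 genes tested (7 genes), and the lowest adjusted p was 0.108 (edgeR). The unexposed L4 libraries also set the minimum level in the choice of genes, and the genes passed the filter on low counts through L4 libraries of both treatments. At an unadjusted p under 0.05 there were 10 of the 34, beside 26.8% of all genes tested. Of these 10, 6 were lower in exposed worms (12.2% of all genes) and 4 were higher (14.6% of all genes). The DESeq2 Wald test called none at the same fold limit, where it called 1.26% of the genes to which it gave an adjusted p. Without the fold limit it had 3 at an adjusted p of at most 0.05, all lower in exposed worms: *R04D3.3* (0.0254), *ZK813.1* (0.0326) and *Y62H9A.5* (0.0485), beside 4.02% of all genes in that direction.

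The fitted differences were small and lay on both sides of 0. The median log2 fold change was 0.068, beside 0.026 over all genes tested, and became -0.0075 without exposed replicate 1. Values ranged between -0.65 and 0.36, with 23 genes above 0 and 11 below (19 above 0 with DESeq2 size factors in place of TMM, 16 without exposed replicate 1 and 17 without unexposed replicate 2). The 95% intervals bound what these libraries could have missed: the end farthest from 0 was -1.18, for *F17E9.4*, and for the 10 most abundant genes the intervals lay between -0.69 and 0.46.

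**Figure D2:**
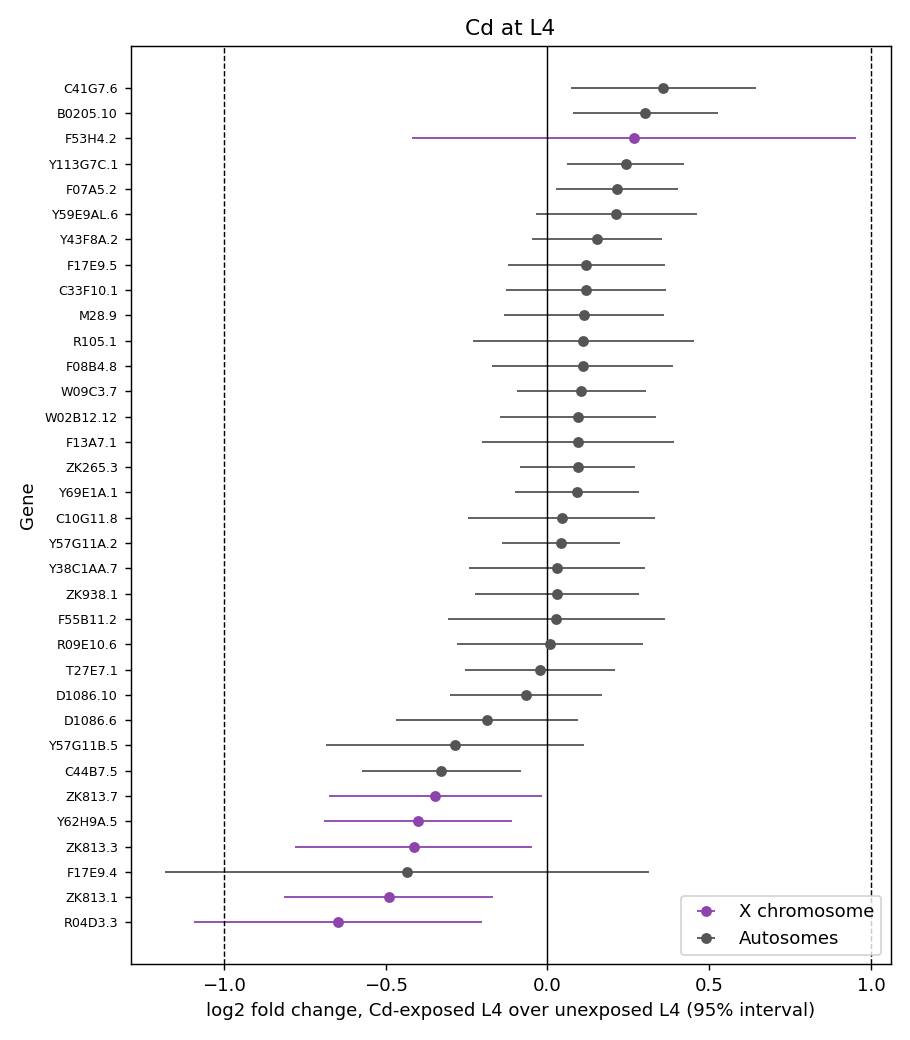
Fitted log2 fold change of the 34 genes in Cd-exposed L4 over unexposed L4, with 95% intervals (edgeR, n = 3 libraries each). X-linked genes are purple and autosomal genes grey, the dashed lines mark the fold limit of a call, and 5 of the 6 X-linked genes lie below 0 while *F53H4.2* lies at 0.27 with a wide interval.

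The lowest fold change belonged to *R04D3.3* on the X chromosome (13288917 to 13290631, minus strand). It measured 32.5, 50.4 and 44.5 CPM in exposed L4 and 55.7, 75.7 and 60.8 CPM in unexposed L4. All exposed libraries lay below all unexposed ones, and the log2 fold change was -0.65 (SE 0.19, adjusted p 0.113). *ZK813.1* had 36.0, 41.9 and 43.1 CPM in exposed L4 and 51.3, 48.1 and 64.4 CPM in unexposed L4, again without overlap, at -0.49 (SE 0.14, adjusted p 0.108). *C44B7.5*, on chromosome II, had 61.2, 67.8 and 65.8 CPM in exposed L4 and 74.1, 86.7 and 74.3 CPM in unexposed L4 and did not overlap either, at -0.33 (SE 0.11, adjusted p 0.121). Over other ways of running the test the adjusted p of *R04D3.3* ranged between 0.0162 and 0.236, that of *ZK813.1* between 0.019 and 0.250 and that of *C44B7.5* between 0.0227 and 0.290, and none reached the fold limit.

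At the other end stood *C41G7.6* (*cylc-2*), with 119, 84.0 and 86.5 CPM in exposed L4 and 81.4, 68.7 and 66.5 CPM in unexposed L4. Its log2 fold change was 0.36 (SE 0.12, adjusted p 0.135). *B0205.10* had 80.8, 61.8 and 65.9 CPM in exposed L4 and 56.3, 51.3 and 54.5 CPM in unexposed L4, at 0.30 (SE 0.10, adjusted p 0.119). In both genes every exposed library was above every unexposed one, and exposed replicate 1 was the highest of the 6. The same separation was seen in *Y113G7C.1* and *F07A5.2* (*spsp-1*), at 0.24 and 0.22. So 4 of the 34 (11.8%) had all exposed libraries above the unexposed ones, beside 21.3% of all genes tested, and 4 (11.8%) had all of them below, beside 13.8% of all genes. The other 26 overlapped.

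Large differences in the mean could rest on 1 library. *F17E9.4* had 73.0, 57.1 and 59.6 CPM in exposed L4 and 133, 40.6 and 76.0 CPM in unexposed L4, so both the highest and the lowest values were unexposed. Its log2 fold change of -0.43 (SE 0.33, adjusted p 0.392) became -0.0083 without unexposed replicate 1 and -0.75 without unexposed replicate 2. *F53H4.2* had 98.3, 65.3 and 68.4 CPM in exposed L4 and 85.8, 31.8 and 68.5 CPM in unexposed L4. Its value of 0.27 (SE 0.30, adjusted p 0.561) became -0.037 without unexposed replicate 2 and 0.092 without exposed replicate 1. In both genes unexposed replicate 2 was the lowest of the 6 libraries.

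Most of the 6 X-linked genes differed in direction from most of the autosomal ones, a split seen after the values were known and given without a test. Of the X-linked genes 5 had fold changes below 0, with a median over the 6 of -0.41. Of the 28 autosomal genes 22 were above 0 (4 of them below 0 with DESeq2 size factors), with a median of 0.094. Among these 5, *ZK813.3*, *ZK813.7* and *ZK813.1* are close neighbours on the plus strand, so they need not count as separate cases. The only X-linked genes with a symbol that met the same limits, *meg-1* and *ule-5*, were also below 0, at -0.55 and -0.25. The share of all X-linked genes below 0 was not computed, so the split cannot be read as particular to these genes. Summed over the 6, the X-linked genes stood at 336, 339 and 353 CPM in exposed L4 and 427, 346 and 460 CPM in unexposed L4. All exposed libraries lay within a narrow band, and unexposed replicate 2 fell inside it. The 28 autosomal genes summed to 3183, 2614 and 2671 CPM in exposed L4 and 2965, 2350 and 2539 CPM in unexposed L4, with overlapping groups.

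**Figure D3:**
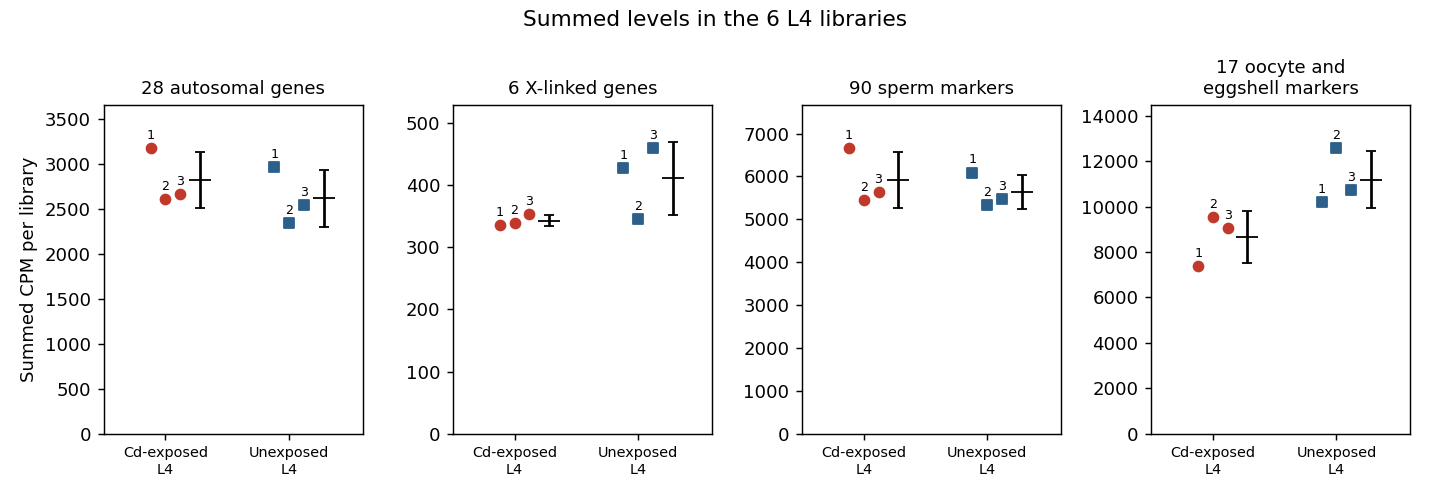
Summed CPM in each L4 library for the 28 autosomal genes, the 6 X-linked genes, the 90 sperm markers and the 17 oocyte and eggshell markers. Points are libraries with their replicate number, bars are the mean ± SD of 3 libraries, and all y axes start at 0. For the oocyte and eggshell markers the highest exposed library (9554 CPM) was under the lowest unexposed library (10206 CPM), while the sperm sums overlapped.

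Marker sums of sperm, oocytes, yolk and adult cuticle also differed between the L4 libraries. The sperm sum was 6672, 5453 and 5640 CPM in exposed L4 and 6091, 5336 and 5474 CPM in unexposed L4, highest in replicate 1 of both groups. The oocyte and eggshell sum was 7366, 9554 and 9056 CPM in exposed L4 and 10206, 12598 and 10734 CPM in unexposed L4, with all exposed libraries below all unexposed ones and replicate 1 the lowest of each group. The yolk sum was 18794, 30622 and 28693 CPM in exposed L4 and 25214, 47624 and 34101 CPM in unexposed L4. Unexposed replicate 2, the highest library in the oocyte and yolk sums, was the lowest of its group in the X-linked sum. The adult cuticle sum (4 genes) was 1866, 1960 and 1959 CPM in exposed L4 and 2024, 2150 and 2078 CPM in unexposed L4, and between 2.83 and 6.997 CPM in the L3 libraries. Cd called none of these markers at L4. Of 84 sperm markers tested the median log2 fold change was 0.060. All 17 oocyte and eggshell markers were below 0 with a median of -0.43, and all 6 *vit* genes were below 0 with a median of -0.58. The 4 adult cuticle markers had a median of 0.58, with 3 above 0 and 1 below, although their sum was lower in exposed worms. Most of that sum was *col-19*, at 1422, 1642 and 1645 CPM in exposed L4 and 1692, 2013 and 1829 CPM in unexposed L4. Against exposed L3, 81 of the 84 sperm markers tested, all 17 oocyte and eggshell markers, all 6 *vit* genes and all 4 adult cuticle markers were called higher in exposed L4. Of all genes tested 25.5% were called higher, and markers almost absent at L3 pass the filter only through L4 libraries and so had to differ. The part of these transcripts in the values of the 34 genes was not tested.

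In most of the 34 genes the ratio to the sperm sum varied less between libraries than the level itself. Over the 6 L4 libraries, which differ in replicate and in Cd, the coefficient of variation (CV) of a gene's CPM was compared with the CV of its ratio to a marker sum. Dividing by the sperm sum made the CV smaller in 25 of the 34 genes, where the median CV was 14.1% before and 7.52% after. The share over all genes was not computed, so the 25 cannot be set against other genes expressed at L4. The ratio was steadiest for *Y57G11A.2*, at 2.82%, followed by *T27E7.1* at 3.13%. In 19 genes the CV of the ratio was under 10%, among them *R09E10.6* (7.35%), *F17E9.5* (5.29%), *C33F10.1* (6.2%) and *Y38C1AA.7* (5.53%). In all 25 the sperm sum gave a smaller CV than the oocyte, yolk or adult cuticle sums did. The oocyte and yolk sums themselves spanned 7366 to 12598 and 18794 to 47624 CPM, against 5336 to 6672 CPM for sperm. A ratio to them is wider for that reason alone, so the comparison with those sums was partly fixed in advance. The adult cuticle sum spanned 1866 to 2150 CPM, most of it from *col-19*. These 25 included the genes now called *cylc-1*, *cylc-2*, *spsp-1* and *nsph-2*. No gene of the 34 ranked the 6 libraries exactly as the sperm sum did. The likeness describes 6 libraries over which every gene shares depth and treatment.

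In the other 9 genes dividing by the sperm sum did not make the CV smaller (median 18.3% before and 21.2% after). They were *D1086.10*, *D1086.6*, *C44B7.5*, *Y57G11B.5* and the X-linked *Y62H9A.5*, *R04D3.3*, *ZK813.3*, *ZK813.7* and *ZK813.1*, that is, all X-linked genes but *F53H4.2*. *C44B7.5*, *R04D3.3*, *ZK813.3* and *ZK813.1* had their smallest CV relative to the oocyte and eggshell sum. For *C44B7.5* the CV was 12.5% for CPM, 7.19% relative to the oocyte and eggshell sum and 18.6% relative to the sperm sum, and for *R04D3.3* these were 27.6%, 10.6% and 33.1%. *C44B7.5* and *R04D3.3* ranked the 6 libraries exactly as the oocyte and eggshell sum did, with unexposed replicate 2 the highest and exposed replicate 1 the lowest, and no other gene of the 34 did. In the 3 *ZK813* genes, *Y62H9A.5*, *Y57G11B.5* and both *D1086* genes, unexposed replicate 3 was the highest of the 6, as it was in *F55B11.2* among the 25.

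**Figure D4:**
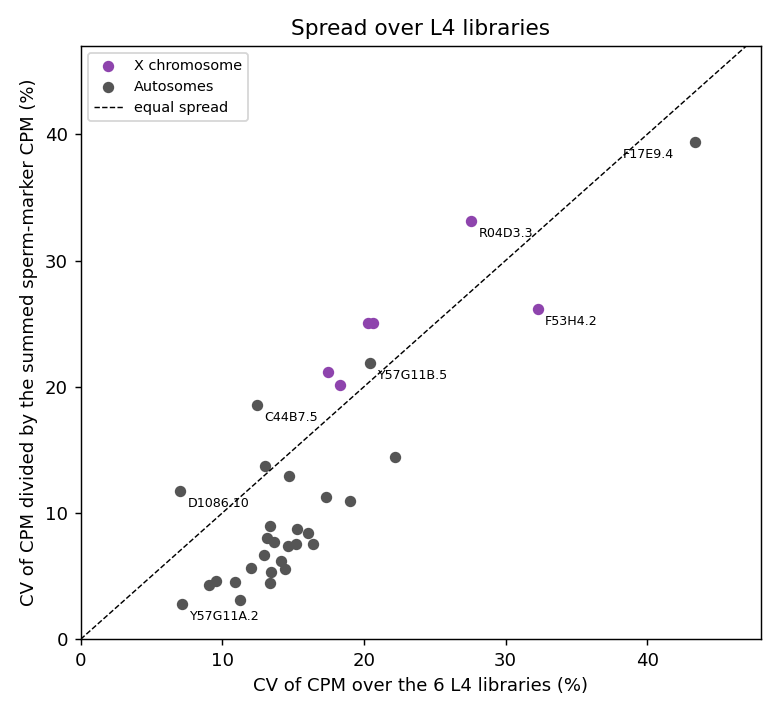
CV over the 6 L4 libraries of each gene's CPM (x axis, %) and of its ratio to the summed CPM of the sperm markers (y axis, %). Each point is a gene, X-linked genes are purple and autosomal genes grey. The 25 points below the dashed line had a smaller CV after division by the sperm sum, and 5 of the 9 points on the other side are X-linked.

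All 5 pairs within 5 kb fell on the same side of the division by the sperm sum, and the size of the variation could still differ within a pair. *F17E9.5* and *F17E9.4*, which have 2 other genes between them, had CVs over the 6 libraries of 13.4% and 43.4%, and the sperm ratio had a CV of 5.29% for *F17E9.5* and 39.4% for *F17E9.4*. *Y57G11A.2* and *T27E7.1*, which point away from a shared stretch of 219 bases, had the steadiest ratios to the sperm sum of the 34. *D1086.10* and *D1086.6*, and the 3 *ZK813* genes, did not have a smaller CV after the division.

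Replicate 1 of the exposed L4 group was the highest of the 6 L4 libraries in 22 genes, unexposed replicate 3 in 8, and unexposed replicates 1 and 2 in 2 each. The lowest library was unexposed replicate 2 in 16 genes, unexposed replicate 3 in 11, exposed replicate 1 in 6 and exposed replicate 2 in 1. Spread within groups was similar, with a median CV of 10.96% in exposed L4 and 12.88% in unexposed L4. It was lower in exposed than in unexposed libraries for 19 genes and higher for 15. The widest spreads of the unexposed libraries belonged to *F17E9.4* (13.6% in exposed L4 and 55.8% in unexposed L4) and *F53H4.2* (23.5% in exposed L4 and 44.4% in unexposed L4).

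At L3 the genes were too low for a comparison of treatments. The 34 together had 43 to 62 counts in an exposed L3 library, or 1.22 to 2.00 CPM, and 33 to 42 counts in an unexposed L3 library, or 0.973 to 1.51 CPM. The unexposed L3 counts were held to 3 by the choice of genes while the exposed counts were not, so a higher count in exposed libraries cannot be told apart from that choice.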

How the data were processed

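The deposited values are raw gene counts, 1 table per library with 46546 named genes. The authors aligned paired-end reads of poly-A RNA to WBcel235 with STAR 2.5.2b and counted them with featureCounts (Subread 1.5.2); the submitters' processing notes also name Trimmomatic 0.36. Annotation release, strand setting and handling of multi-mapping reads are not given in the sources used here. The entry without a gene name (0.0148% to 2.01% of counts) was left out. Because the source name given for Cd-exposed samples reads as 0 Cd, treatment labels were checked with the metallothionein gene *mtl-1*, which stood at 15.5 to 22.3 CPM in exposed L4 and 1.26 to 3.14 CPM in unexposed L4.

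The 34 genes, the marker lists and the tests were chosen with earlier results of these data known. Counts were tested in R 4.3.3 with edgeR 4.0.16 (TMM, filterByExpr, quasi-likelihood, Benjamini-Hochberg over all genes tested), using the 6 libraries compared, and called where the adjusted p did not exceed 0.05 and the log2 fold change was 1 or more in either direction. DESeq2 1.42.0 was an alternative. The script was tested on simulated data. Genes were named by rank of level, closeness to the limits, fold change under Cd and L3 counts (3 to 10 genes each). The remaining named genes, the split by chromosome and the order of libraries were taken up after their values were seen. No 2 libraries of a group agreed within sampling noise (chi-square per degree of freedom 3.33 for exposed L4 replicates 2 and 3, otherwise 13.1 to 99.2). Intervals on count ratios are exact, at 95%. Exon coordinates came from the count tables, and gene models and symbols from Ensembl release 115 and RefSeq. Protein relatedness and promoter sequence were not analysed here.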

Additional observations from a re-analysis of the deposited data

How the results depend on the processing

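The number of genes depended on the limits: 80 at a minimum of 25 CPM, 10 at 100 CPM, 3 with no L3 count allowed and 60 with up to 10 L3 counts. Leaving out 1 unexposed library gave 33 to 40 genes, and TMM-scaled library sizes gave 42. None of the 34 was called in exposed against unexposed L4 under any alternative run (DESeq2 size factors, the DESeq2 Wald test, no filter, the replicate block, all 12 libraries, each library left out). With a library left out the value farthest from 0 was -0.82 (*R04D3.3*), short of the fold limit, so 0 calls say nothing about stability. Without the fold limit, adjusted p was at most 0.05 for 10 genes with the block, 3 with the Wald test and 2 with no filter. It was above 0.05 for all 34 in the other runs. The share of all genes without the filter was not computed. The median Cd difference at L4 ran between -0.0075 (without exposed replicate 1) and 0.093 when a library was left out. Values near 0 changed sign. With DESeq2 size factors *R09E10.6* was -0.026, *Y38C1AA.7* -0.0056, *ZK938.1* -0.0038 and *F55B11.2* -0.0049, and with the Wald test -0.032, -0.011, -0.0093 and -0.010 in the same order. With all 12 libraries *R09E10.6* was -0.012. Leaving out 1 library gave -0.075 to 0.096 for *R09E10.6*, -0.045 to 0.13 for *C10G11.8*, -0.13 to 0.0067 for *D1086.10*, -0.097 to 0.075 for *Y38C1AA.7*, -0.055 to 0.091 for *ZK938.1*, -0.13 to 0.16 for *F55B11.2*, -0.013 to 0.13 for *W02B12.12*, -0.064 to 0.15 for *F13A7.1*, -0.0083 to 0.24 for *R105.1*, -0.12 to 0.015 for *T27E7.1* and -0.037 to 0.50 for *F53H4.2*. The cause was not tested.

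Same-numbered L4 libraries correlated at 0.45, 0.39 and -0.11 in their deviations from the group means. For exposed replicates 1 and 2 the same number was the best match, while exposed replicate 3 correlated best with unexposed replicate 2 (0.31). These values do not settle whether the replicate numbers pair the samples, and the main fit did not use them as pairs. With the replicate as a block 0 of the 34 were called at L4 and 10 had an adjusted p of at most 0.05 without the fold limit. The share of all genes at that adjusted p was not computed, so the 10 cannot be read as particular to these genes. The median of the 34 was then 0.064, and over all genes the block gave 343 higher and 44 lower calls, against 6 and 1 without it. The count of 34 in exposed L4 against exposed L3 was the same under the block and the other alternatives, which says nothing about stability, since genes this low at L3 had to differ. Over all genes the Wald test gave 138 higher and 39 lower calls at L4, no filter gave 226 and 41, and all 12 libraries gave 73 and 20, while leaving out 1 library gave 0 to 11 higher and 0 to 1 lower.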

Other observations

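Among genes that carry a symbol in the tables, 39 met the same limits as the 34, and 21 of them are on the list of sperm markers. They included 15 *msp* genes, the sperm phosphatases *gsp-3* and *gsp-4*, and the sperm chromatin genes *spch-1* and *spch-3*. The highest was *perm-2*, a gene of the eggshell's permeability barrier, at a mean of 347 CPM in exposed L4 and 405 CPM in unexposed L4. Cd called none of the 39 at L4 (edgeR, 2 at an unadjusted p under 0.05), with a median log2 fold change of 0.052 and 27 above 0. The lowest was *meg-1*, a germ granule gene of the early embryo, at -0.55 (SE 0.21, adjusted p 0.152), and *perm-2* was at -0.28 (SE 0.14, adjusted p 0.222).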
